A study of Mus musculus with 3 samples.

Results

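Cytochrome P450 family 2 is the largest P450 family of the mouse, and 9 of its genes outside the 2C and 2D subfamilies were examined here: Cyp2a12, Cyp2f2, Cyp2e1, Cyp2b9, Cyp2b10, Cyp2j5, Cyp2j6, Cyp2u1 and Cyp2r1. They were taken by name, as the single gene symbol of a probe set in the platform annotation, from 18193 genes with such a probe set. In the liver given Cre virus, differences from the livers given control virus ran from 70.5-fold lower for Cyp2a12 to 2.80-fold higher for Cyp2b9.

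P450 enzymes are haem proteins of the endoplasmic reticulum that put an oxygen atom into a substrate, with electrons from P450 reductase and, for some, cytochrome b5. Family 2 members of the liver act on drugs, solvents and other foreign compounds, on steroids and fatty acids, and in the case of Cyp2r1 on vitamin D. Many of them are expressed mainly in hepatocytes, in patterns set by nuclear receptors, by sex hormones and by the position of the cell between portal and central vein.

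Gene expression was measured on oligonucleotide arrays with total RNA from livers of 3-month-old mice of mixed strain, taken 1 week after 400 microL of virus had been injected once into the peritoneum. The Cre virus, MUP-iCre-AAV8, was given to 1 mouse, whose liver is labelled as an HNF4alpha knockout. The control virus, MUP-EGFP-AAV8, was given to 2 mice, whose livers are labelled wild type. According to the series design both viruses went into floxed Hnf4a mice, so the genotype of the control mice is not settled by the sources used here. Cre recombinase removes floxed DNA, here in the gene for HNF4alpha, a nuclear receptor of hepatocytes. The labels do not spell out MUP. All Cre values come from 1 animal, and a difference between the viruses cannot be told apart from one between these mice.

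Values are log2 expression, and each difference is Cre minus the control mean, with the moderated standard error (SE) of limma. The 95% intervals come from the same fit and, unlike the adjusted p, are not adjusted for the number of genes. Genes are said to rise or fall if limma gave them an adjusted p under 0.05 over 14733 fitted genes, a test that lets the single Cre array vary as the controls did. The controls differed by 1 log2 unit or more in 87 fitted genes (0.591%), with a median gap of 0.15. The probe sets of Hnf4a were all lower in the Cre liver, by 0.55 to 1.18 log2 units, and the brightest, 1427001_s_at, was at 11.38 in the Cre liver against 11.91 and 11.96 in the control livers. Where they lie relative to the floxed DNA was not analysed here.

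The promoters of 4 members are shown first because these genes lie in one P450 cluster of chromosome 7 and behaved differently. The sequences, 250 bases before to 50 bases after the annotated start, are RefSeq's for GRCm38.p6, and all 4 genes lie on the plus strand. Cyp2a12 (chr7:27028840-27029139) and its direct neighbour Cyp2f2 (chr7:27119705-27120004) had the largest falls among the members. Capitals mark a TATAAA motif, which starts 39 bases upstream of the start of Cyp2a12, and the Cyp2f2 window holds no match to it.
Cyp2a12: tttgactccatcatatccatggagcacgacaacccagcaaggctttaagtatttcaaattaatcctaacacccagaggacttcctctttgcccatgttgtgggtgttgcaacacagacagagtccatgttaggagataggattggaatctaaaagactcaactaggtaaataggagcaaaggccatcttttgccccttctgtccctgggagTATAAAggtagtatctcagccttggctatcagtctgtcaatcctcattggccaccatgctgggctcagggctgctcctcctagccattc
Cyp2f2: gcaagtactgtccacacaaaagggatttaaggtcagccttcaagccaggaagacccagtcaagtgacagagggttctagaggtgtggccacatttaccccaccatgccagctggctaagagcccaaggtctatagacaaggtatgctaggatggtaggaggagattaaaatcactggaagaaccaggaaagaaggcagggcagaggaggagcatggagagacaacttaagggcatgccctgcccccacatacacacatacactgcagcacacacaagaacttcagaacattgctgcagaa

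Cyp2b9 (chr7:26173159-26173458) and Cyp2b10 (chr7:25897408-25897707) are paralogs that were not lower. Their windows were identical at 223 of 311 aligned columns (71.7%), against at most 48.9% for any other pair of the 8 member windows in the table. Capitals mark the 5 stretches of at least 10 bases that are the same in both, of which the longest has 14.
Cyp2b9: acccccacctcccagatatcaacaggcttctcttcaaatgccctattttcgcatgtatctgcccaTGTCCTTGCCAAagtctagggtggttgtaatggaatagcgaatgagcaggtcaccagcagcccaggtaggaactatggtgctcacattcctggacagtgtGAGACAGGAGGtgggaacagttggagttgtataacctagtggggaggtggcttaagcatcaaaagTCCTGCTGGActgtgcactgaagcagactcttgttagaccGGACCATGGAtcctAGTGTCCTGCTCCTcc
Cyp2b10: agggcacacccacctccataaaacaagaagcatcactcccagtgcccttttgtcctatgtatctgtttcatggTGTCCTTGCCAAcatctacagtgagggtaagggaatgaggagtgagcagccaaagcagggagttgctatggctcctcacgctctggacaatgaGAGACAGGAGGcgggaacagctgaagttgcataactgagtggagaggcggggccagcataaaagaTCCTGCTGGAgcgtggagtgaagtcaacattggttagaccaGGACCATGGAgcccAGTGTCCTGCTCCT

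Short motifs of liver factors were searched on both strands of the same windows. CAAAGTCCA and CAAAGGTCA, forms of the site bound by HNF4 proteins, were found in 0 of 8 member windows each, and in 0.475% and 0.478% of all 32851 promoter windows. GTTAATNAT, an HNF1 motif, and TTGCGCAA, a C/EBP motif, were also in 0 of 8, and in 0.801% and 0.183% of all windows. TATAAA was in 3 of 8, those of Cyp2a12, Cyp2e1 and Cyp2j5, and in 13.6% of all windows. The matches of Cyp2a12 and Cyp2e1 are on the gene's own strand, 39 and 31 bases upstream. That of Cyp2j5 is on the opposite strand, 128 bases upstream. A missing match says only that these letters are not in the window.

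Of the 5 enzymes of foreign compounds and steroids, Cyp2a12 and Cyp2f2 fell, Cyp2b9 rose, and Cyp2e1 and Cyp2b10 did not pass the test. Cyp2a12, which in mouse liver hydroxylates steroids and bile acids, was at 6.57 in the Cre liver, against 12.75 and 12.67 in the control livers. It fell by 6.14 log2 units (± 0.11 SE, adjusted p = 0.00119), 70.5-fold, and the control livers were within 0.08 of each other. Only 1 single-gene probe set reads this gene.

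Cyp2f2, known in the mouse for activating naphthalene in the lung and for its periportal place in the liver, was at 8.05 in the Cre liver, against 13.24 and 13.30 in the control livers. It fell by 5.22 log2 units (± 0.10 SE, adjusted p = 0.00119), 37.3-fold. The Cre liver was far below both controls for this gene and for Cyp2a12, and in both cases the gap between the controls was smaller than the median gap of all genes. Its one probe set, 1448792_a_at, belongs to a type that can read several transcripts of a gene. In bulk liver RNA, fewer expressing cells and less RNA per cell cannot be told apart.

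Cyp2e1, the pericentral enzyme that oxidises ethanol and activates acetaminophen, was at 14.21 in the Cre liver, against 14.15 and 14.16 in the control livers. The difference of 0.06 ± 0.08 SE did not pass (adjusted p = 0.669), and its 95% interval ran from 0.897-fold to 1.21-fold. The Cre value lay slightly above both controls. This probe set reads near the top of the arrays, whose highest value is 15.048, and whether its signal was still proportional to RNA there was not tested.

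Cyp2b9 and Cyp2b10 belong to the subfamily that includes classic targets of CAR, the xenobiotic receptor encoded by Nr1i3. Cyp2b9, which is more abundant in livers of female than of male mice, was at 5.29 in the Cre liver, against 3.73 and 3.89 in the control livers. It rose by 1.48 log2 units (± 0.18 SE, adjusted p = 0.0224), 2.80-fold. The control mean of 3.81 lies close to the filter on dim genes at 3.17, and RMA compresses differences near background, so the size of this rise is uncertain.

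Cyp2b10, the best known CAR-induced gene of mouse liver, was at 8.21 in the Cre liver, against 7.59 and 7.06 in the control livers. The Cre value was above both controls, but the controls lay 0.53 apart, a gap that 94.4% of fitted genes do not exceed. The difference of 0.89 ± 0.26 SE did not pass (adjusted p = 0.121), and its 95% interval ran from 1.13-fold to 3.03-fold. Its other probe sets gave 0.91 (1422257_s_at) and 0.38 (1451787_at), and neither passed. On 1451787_at the Cre liver was at 7.45, against 7.34 and 6.80 in the control livers, so that probe set put the Cre liver only 0.11 above the higher control. The brightest probe set, 1425645_s_at, and 1422257_s_at carry the suffix _s_at of probe sets that close paralogs can share, whereas 1451787_at does not. The 2B genes were not told apart further.

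**Figure D1:**
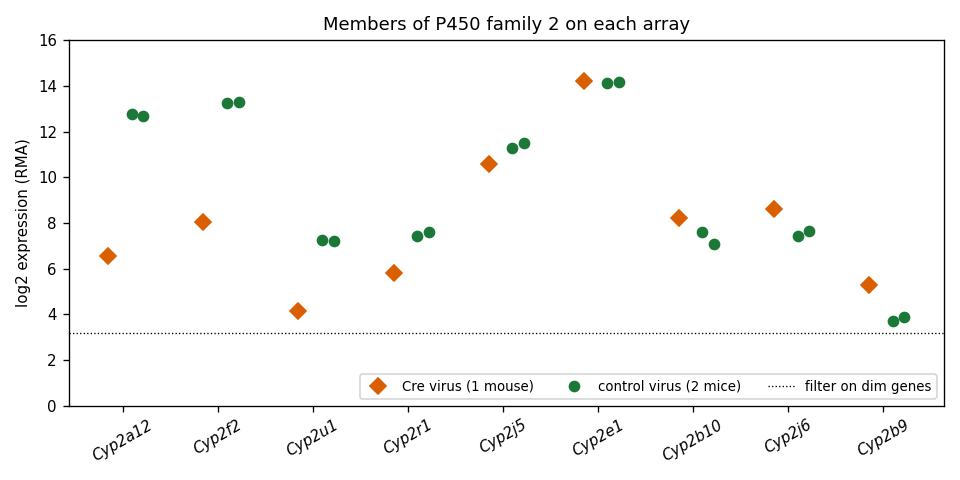
Log2 expression of each member on its brightest single-gene probe set (y axis, RMA) in the Cre virus liver (diamonds, 1 mouse) and the control virus livers (circles, 2 mice), ordered by difference, with the filter value of 3.17 as a dotted line. The Cre diamonds of Cyp2a12 (6.57) and Cyp2f2 (8.05) sit far below controls above 12, whereas that of Cyp2e1 (14.21) lies level with its controls.

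Of the 3 enzymes that act on fatty acids, Cyp2j5 and Cyp2u1 fell and Cyp2j6 rose. Cyp2j5, an arachidonic acid epoxygenase of mouse kidney and liver, was at 10.60 in the Cre liver, against 11.30 and 11.51 in the control livers. It fell by 0.81 log2 units (± 0.13 SE, adjusted p = 0.0413), 1.75-fold. Its second probe set, 1417532_at, was at 8.20 in the Cre liver, against 8.73 and 9.16 in the control livers, a difference of -0.75 ± 0.22 SE that did not pass. Both probe sets had the Cre liver below both controls.

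Cyp2j6, a member of the same subfamily, was at 8.61 in the Cre liver, against 7.42 and 7.64 in the control livers. It rose by 1.08 log2 units (± 0.16 SE, adjusted p = 0.0327), 2.11-fold, and its second probe set, 1440691_at, was at 8.23 in the Cre liver, against 7.02 and 7.36 in the control livers, a difference of 1.04 ± 0.20 SE that did not pass (adjusted p = 0.0823 over probe sets). Cyp2j5 and Cyp2j6 thus differed from the controls in opposite directions, each on 2 probe sets, with the Cre liver outside both controls on all of them. Both calls were near the threshold. Adjusted over 31526 probe sets instead of genes, Cyp2j5 was at adjusted p = 0.0626 and Cyp2j6 at adjusted p = 0.0547 by limma's test, and neither passed.

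Cyp2u1, whose human counterpart hydroxylates long-chain fatty acids, was at 4.14 in the Cre liver, against 7.25 and 7.22 in the control livers. It fell by 3.09 log2 units (± 0.15 SE, adjusted p = 0.003), 8.54-fold. The Cre value is close to the median of all probe sets on that array, 4.15, so the size of the fall is uncertain. Its second probe set, 1444960_at, was at 3.71 in the Cre liver, against 4.72 and 4.56 in the control livers, and its difference of -0.92 ± 0.19 SE did not pass (adjusted p = 0.0856 over probe sets). The mean of both probe sets gave -2.01. Both lay below both controls, but the dimmer one showed a much smaller difference.

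Cyp2r1, the microsomal hydroxylase that takes the first step in activating vitamin D, was at 5.83 in the Cre liver, against 7.42 and 7.61 in the control livers. It fell by 1.69 log2 units (± 0.16 SE, adjusted p = 0.0139), 3.22-fold, on its one single-gene probe set. None of the 4 other fitted genes of vitamin D handling passed. Cyp27a1, a mitochondrial enzyme that can also take this step, was at 11.06 in the Cre liver, against 10.96 and 11.18 in the control livers, and Cyp24a1, which inactivates the hormone, differed by -0.10 ± 0.20 SE. Dhcr7, whose enzyme turns the precursor of vitamin D into cholesterol, was at 7.64 in the Cre liver, against 8.63 and 9.19 in the control livers, a difference of -1.27 ± 0.27 SE (adjusted p = 0.0665).

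**Figure D2:**
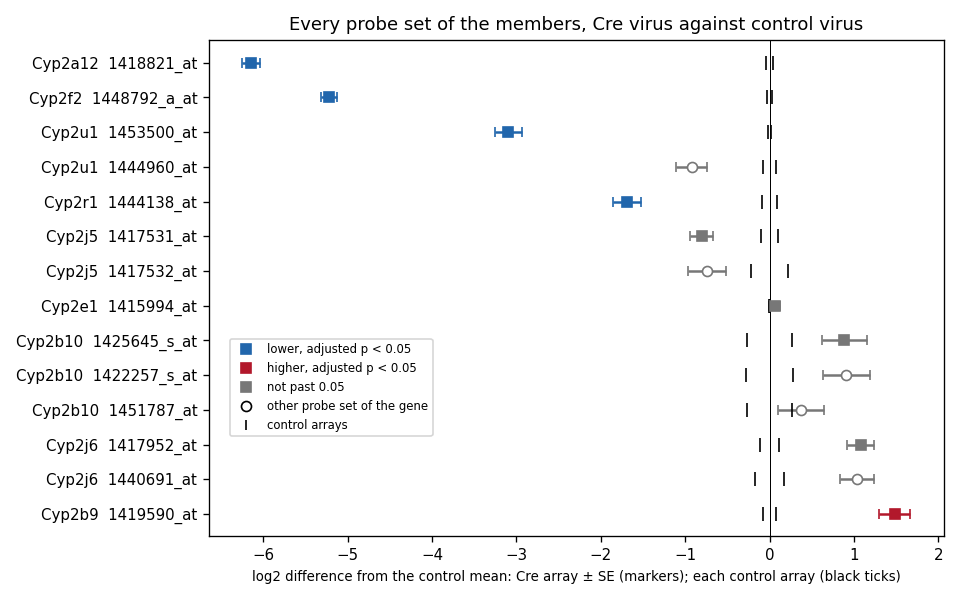
Difference from the control mean in log2 units (x axis) for all 14 single-gene probe sets of the members, with the Cre array as a marker with its SE and the control arrays as black ticks. Squares are the probe sets that stand for their gene, open circles the others, and colours follow limma's adjusted p over 31526 probe sets, at which Cyp2j5 and Cyp2j6 are grey.

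All 9 members passed the filter on dim genes. Of the 9, 5 fell, and 4.22% of all fitted genes fell. The 2 that rose compare with 5.12% of all fitted genes. By size alone, without a test, 4 members were at least 1 log2 unit below both controls, against 3.23% of all fitted genes, and 1, Cyp2b9, was as far above both, against 3.35%. The members' median difference was -0.81, and that of all fitted genes 0.05. Among the 14 probe sets of the members, 4 were lower and 1 higher, and 4.29% of all fitted probe sets passed in either direction. Where a gene had several probe sets, all of them differed from the control mean in the same direction.

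Genes with the most similar pattern were sought among 62 fitted genes with a Cyp symbol, by Euclidean distance over the 3 arrays after subtracting each gene's control mean. The nearest to Cyp2a12 was Cyp2d26 (-5.94, distance 0.290), to Cyp2f2 it was Cyp2c23 (-5.01, distance 0.216), and to Cyp2u1 it was Cyp2d10 (-3.39, distance 0.294). Cyp2r1 lay nearest to Cyp7b1, an oxysterol hydroxylase (-1.55, distance 0.160). For Cyp2b9 it was Cyp4f16 (1.68, distance 0.345), which also rose. The nearest to Cyp2j5, Cyp4a31 (-0.67, distance 0.140), and to Cyp2j6, Cyp20a1 (0.88, distance 0.258), did not pass the test. With 3 arrays this distance mainly reflects the size of the Cre difference.

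The other family 2 genes on the array numbered 26, of which 23 were fitted. Of these 11 fell and 0 rose by limma's test, with a median difference of -1.16. The lowest were Cyp2c54 (-7.27) and Cyp2d26 (-5.94), and the highest, Cyp2g1 (0.20) and Cyp2j11 (0.07), did not pass. Falls outside the members were in the 2C (6 of 10 fitted) and 2D (5 of 8 fitted) subfamilies, and 0 of the 5 remaining genes passed in either direction. Among the remaining genes, Cyp2b13, Cyp2j11 and Cyp2s1 had control means of 3.28, 3.28 and 3.71. These lie close to the filter value of 3.17, where RMA compresses differences and a fall may be understated. Both rises of the family, Cyp2b9 and Cyp2j6, are thus members, but a difference between the members and the rest of the family was not tested.

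**Figure D3:**
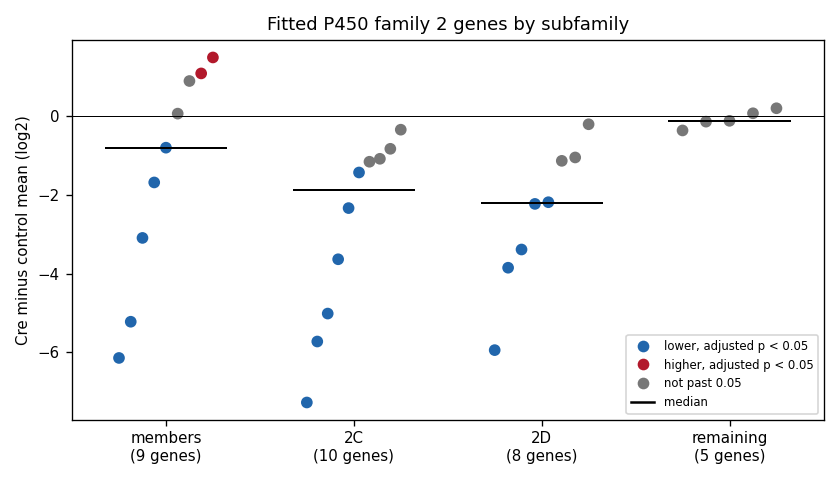
Cre minus control mean in log2 units (y axis) for every fitted P450 family 2 gene, 1 point per gene, in the members and in the other 2C, 2D and remaining genes, with a line at each median. The red points at 1.48 (Cyp2b9) and 1.08 (Cyp2j6) are the only calls above 0.

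Position along the chromosome did not go with one direction. In the RefSeq gene order of GRCm38.p6, 13 protein-coding P450 genes of family 2 run from Cyp2s1 to Cyp2t4 in the chromosome 7 cluster. Cyp2a12 and Cyp2f2, next to each other near its end, fell by more than 5 log2 units. Towards the other end, Cyp2b9 rose, Cyp2b13 between Cyp2b10 and Cyp2b9 differed by -0.14 ± 0.22 SE, and Cyp2s1 by -0.37 ± 0.17 SE, neither past the threshold. Cyp2b13 and Cyp2s1 were read close to the filter value, where a fall may be understated. Cyp2g1, in the middle, was at 6.42 in the Cre liver, against 6.32 and 6.14 in the control livers. Of the genes closest in name to Cyp2a12, Cyp2a4 and Cyp2a5 share a probe set that lists both, 1422230_s_at, which was at 13.03 in the Cre liver, against 12.83 and 12.55 in the control livers.

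In the cluster of 7 protein-coding Cyp2j genes, Cyp2j9 lies between Cyp2j6 and Cyp2j5. Cyp2j6 rose, Cyp2j9 differed by -0.12 ± 0.20 SE without passing, and Cyp2j5 fell. Cyp2u1 stood between Hadh (0.19 ± 0.13 SE) and Sgms2 (-0.12 ± 0.13 SE), and neither of these neighbours passed. Next to Cyp2r1, Pde3b differed by -0.49 ± 0.12 SE (adjusted p = 0.0881), which did not pass either.

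**Figure D4:**
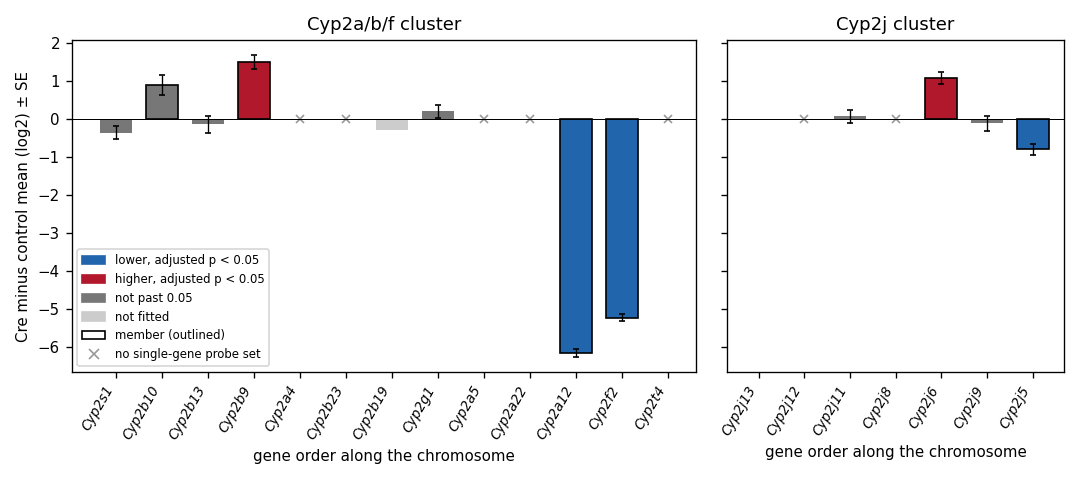
Cre minus control mean in log2 units with its SE (y axis) for the protein-coding family 2 genes of the Cyp2a/b/f and Cyp2j clusters, drawn in gene order and not to distance, with members outlined and crosses where no single-gene probe set was read. Cyp2a12 and Cyp2f2 stand side by side at -6.14 and -5.22, and Cyp2b9 in the same cluster is at 1.48.

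Among the known regulators of family 2 genes, 4 of 15 fitted genes fell and 1 rose. Nr1i3 (CAR) was at 5.01 in the Cre liver, against 8.20 and 8.17 in the control livers, and fell by 3.18 log2 units (± 0.14 SE, adjusted p = 0.00235). Cebpa fell by 1.26, Cebpb by 1.04 and Hnf4a by 0.55 log2 units, and Nr0b2, which encodes the repressor SHP, rose by 1.05. Nr1i2, the gene of the related receptor PXR, differed by 0.05 ± 0.14 SE and did not pass. Cyp2b10 was above both controls in the liver in which CAR transcript was lower, but its difference did not pass. On its probe set 1451787_at it was only 0.11 log2 units above the higher control. A link between Cyp2b10 and the CAR transcript was not tested.

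Of 13 fitted CAR and PXR targets outside family 2, 3 fell and 6 rose, with a median difference of 0.61. Sult1e1, an oestrogen sulfotransferase (3.86 ± 0.57 SE), Gadd45b, a stress gene (3.55 ± 0.24 SE), and Gstm3, a glutathione transferase (2.75 ± 0.32 SE), rose, and the carboxylesterase gene Ces2a fell (-4.93 ± 0.18 SE). Among 9 fitted genes of electron supply and haem, 2 fell, Fdx1 (-1.10 ± 0.14 SE), a mitochondrial ferredoxin, and Cyb5r3 (-1.09 ± 0.11 SE), cytochrome b5 reductase. Cyb5a (0.17 ± 0.08 SE) and Alas1, the first enzyme of haem synthesis (0.03 ± 0.25 SE), did not pass. Por, the gene of P450 reductase, and Fdxr were on the list but had no single-gene probe set under these symbols. Neither was read.

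Zonation genes were set beside Cyp2e1 and Cyp2f2, which mark opposite ends of the lobule. Of 10 fitted periportal genes 6 fell and 0 rose, led by Uroc1 (-3.02 ± 0.11 SE) and Hal (-1.88 ± 0.11 SE), both of histidine breakdown, with a median of -0.94. Of 11 fitted pericentral genes 4 fell and 2 rose, with a median of 0.23. Lect2 fell (-1.32 ± 0.14 SE) and so did Gulo (-0.92 ± 0.11 SE), an enzyme of vitamin C synthesis, and the Wnt-responsive genes Lgr5 (1.19 ± 0.19 SE) and Axin2 (0.96 ± 0.16 SE) rose. Glul, the glutamine synthetase of the innermost pericentral cells, was at 12.02 in the Cre liver, against 11.66 and 11.89 in the control livers, and did not pass. A difference between the periportal and pericentral lists was not tested.

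Of 9 fitted enzymes of arachidonic and epoxy fatty acids other than the members, 1 fell and 2 rose. Ephx2, the soluble epoxide hydrolase that opens epoxides made by Cyp2j enzymes, fell by 0.85 log2 units (± 0.10 SE), while Ephx1 (0.56 ± 0.09 SE) and Cyp4a14, a fatty acid hydroxylase (3.10 ± 0.44 SE), rose.

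The labels used here name no sex for the animals, and Cyp2b9 differs between sexes in this species. Xist, the X-inactivation transcript, was at 3.17 in the Cre liver, against 3.36 and 3.59 in the control livers, near the filter value. The Y-linked transcripts that were read lay well above the filter value in every liver, the Cre liver included. Kdm5d was at 6.15 in the Cre liver, against 6.03 and 6.34 in the control livers, and Uty at 5.89, against 5.37 and 5.14. Eif2s3y, a Y-linked gene, was at 8.07 in the Cre liver, against 7.70 and 7.75 in the control livers, and none of the 4 fitted sex-linked transcripts differed past the threshold.

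Markers of cell types were read in the same arrays. None of 8 fitted hepatocyte markers passed, and their summed linear level was 135689 in the Cre liver, against 140153 and 144397 in the control livers. Alb was at 14.62 in the Cre liver, against 14.75 and 14.72 in the control livers, near the arrays' highest value of 15.048. Whether such bright signals were still proportional to RNA was not tested. Among 7 Kupffer cell and macrophage markers 1 rose, Marco (1.88 ± 0.17 SE), and the sum was 1758 in the Cre liver, against 906 and 1381 in the control livers. None of 4 cholangiocyte, 7 endothelial, 8 stellate cell and 6 lymphocyte and neutrophil markers passed by limma's test. The cholangiocyte sum was 149 in the Cre liver, against 57.4 and 70.7 in the control livers, with Sox9 at 2.35 ± 0.43 SE (adjusted p = 0.0513). The other cholangiocyte markers, Krt19, Krt7 and Epcam, were dim, with control means of 3.75, 3.24 and 4.30. They differed by only -0.16, 0.02 and 0.28 log2 units, so the higher sum mainly reflects Sox9. Endothelial markers summed to 1343 in the Cre liver, against 1198 and 1333 in the control livers, and stellate cell markers to 2965, against 2283 and 2446. Lymphocyte and neutrophil markers summed to 166 in the Cre liver, against 144 and 145 in the control livers.

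Tissues other than liver that can express these P450 genes were checked as well. Club cell and lung markers, of interest for Cyp2f2, summed to 62.0 in the Cre liver, against 93.3 and 81.8 in the control livers, and the defining markers Scgb1a1 and Scgb3a2 were dimmer than the filter value in each liver. Kidney tubule markers, of interest for Cyp2j5, summed to 63.2 in the Cre liver, against 60.9 and 57.5 in the control livers. Of 2 fitted pancreas acinar markers Cela1 fell (-1.51 ± 0.19 SE), and the sum was 325 in the Cre liver, against 996 and 774 in the control livers. The other fitted marker, Ctrb1, was dim, at 4.22 in the Cre liver, against 4.42 and 4.13 in the control livers. Cpa1 was dimmer than the filter value in each liver, so the acinar sum mainly reflects Cela1. The part of Marco, Sox9 and Cela1 in the members' differences was not tested.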

How the data were processed

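Total liver RNA of 3 mice (1 Cre virus, 2 control virus) was labelled with biotin after Trizol extraction, 1 array per mouse, per the labels. The authors deposited log2 values for each probe set, for which the submitters' processing notes name Partek 6.5 and RMA. That the log has base 2 was read from their range, and all folds depend on it. RMA equalises the arrays' distributions and so hides a shift shared by all genes. The labels call the controls biological replicates. The number of arrays limits the precision.

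Of 45101 probe sets, 34945 listed 1 gene, 932 several, 9160 none and 64 were array controls. Symbols were updated by Entrez ID for 34741 through a RefSeq table of GRCm38.p6. Each gene was read on its brightest single-gene probe set by mean over the 3 arrays. Genes with a mean at or above the 30th percentile of all probe sets (3.17) were fitted with limma 3.58.1 in R 4.3.3 (lmFit, eBayes with intensity trend), two-sided, with Benjamini-Hochberg adjustment over 14733 genes. The controls leave 1 residual degree of freedom, and moderation added 3.19. Genes dim in both controls were let in where the Cre value was high enough. The fit was tested on simulated data in which the Cre array varied as the controls did, so that assumption itself was not tested.

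The members, the gene lists and the tests were chosen with earlier results of these data known. Named were all members, Hnf4a, up to 4 passing genes per list plus any that describe it, the nearest Cyp gene of each passing member, and the 2 lowest and 2 highest other family 2 genes. Chromosomal neighbours and the several-gene probe set were named after their values were seen. Promoters were aligned with Biopython 1.88 and figures made in Python 3.11.15 (matplotlib 3.10.9). The alternatives varied the moderation, filter, scaling, probe set choice, threshold and control array. Protein sequences were not used here.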

Additional observations from a re-analysis of the deposited data

How the results depend on the processing

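The falls of Cyp2a12, Cyp2f2, Cyp2u1 and Cyp2r1 and the rise of Cyp2b9 passed at an adjusted p under 0.05 in each alternative fit that read them (9 for Cyp2f2 and 10 for the others), and Cyp2b10 and Cyp2e1 passed in none of these. At an adjusted p under 0.01 Cyp2r1 (0.0139) and Cyp2b9 (0.0224) did not pass. No member's difference changed sign in any alternative, each control left out included. Cyp2j5 did not pass without intensity trend (adjusted p = 0.0826), without a filter (0.0637), with the mean of its probe sets (0.0566) or without shared or mixed probe sets (suffixes _s_at, _x_at and _a_at, 0.0516), and Cyp2j6 did not pass without intensity trend (0.0516) or without a filter (0.0505), by limma's test. The count of members lower, 5, was 3 without shared or mixed probe sets, where Cyp2f2 has no probe set, and 3 at an adjusted p under 0.01. The count of members higher, 2, was 1 without intensity trend, 1 without a filter, 0 at an adjusted p under 0.01 and 1 by size alone. By size alone 1 member was at least 1 log2 unit above both controls, and with either control left out 2 were that far above the other. The members' median of -0.81 was -0.37 without shared or mixed probe sets, and lay between -0.91 and -0.70 with 1 control left out. Of the suffixes left out, _a_at, that of Cyp2f2, stands for probe sets that can read several transcripts of a gene. Of the members' probe sets 5 passed, and 3 without a filter. Over all genes, 622 were lower and 754 higher; quantile normalization gave 997 and 1210, median centring gave 1216 higher, no filter 446 higher, and leaving out shared or mixed probe sets 492 higher. A filter at the 30th percentile of the gene values, chosen after seeing the data, left 12735 genes and the same counts of members, 5 lower and 2 higher. Counts by the test could not be made with a control left out, since 1 array per group leaves no residual degrees of freedom. No paired analysis was possible because the Cre group is 1 array without a replicate number. The cause of these changes was not tested.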
